A study of Drosophila melanogaster with 6 samples.

Results

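The vacuolar ATPase (V-ATPase) genes of Drosophila melanogaster were followed in RNA of whole 3rd instar larvae, collected on the 4th day after egg laying. All genes of the RefSeq annotation of the Release 6 assembly whose symbol starts with Vha were taken, which gave 33 of the 16196 genes with transcripts in the files. There were 6 libraries, 1 for each genotype. In 5 of them Tubulin-Gal4, a driver active in nearly all tissues, was combined with a UAS transgene for a newt (Notophthalmus viridescens) gene, named C1, C2, C3, C4 or C5. Each newt gene, in a pUAST-attB vector, was placed as a single copy at an attP site with phiC31 integrase, and the labels give 1 strain per gene. The control larvae, titled Wild Type, carried Tubulin-Gal4 over S-T and no newt gene, so the driver was present in all 6 genotypes. The labels give neither the sex of the larvae nor how many were pooled.

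The V-ATPase is a rotary proton pump. Its V1 sector, made of subunits A to H, hydrolyses ATP in the cytosol. Its V0 sector, made of subunits a, c, c'', d and e, carries protons across the membrane. The pump acidifies lysosomes, endosomes and synaptic vesicles in all animals, and at the plasma membrane of insect epithelia such as the Malpighian tubule it powers fluid secretion. Flies keep several genes for many subunits. In each subunit the gene known to be used by most tissues and epithelia was taken as the main gene, which with the accessory subunit gene VhaAC45 gave 14 main genes, and the remaining 19 were called paralogs. Subunits B, C, E, G and H had a single Vha gene each.

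The libraries held between 75131812 (C2) and 86975388 (C1) counts. Levels are given as counts per 1000000 (CPM) after TMM scaling, and the 11599 genes whose levels averaged 1 CPM or more over the 6 libraries are called measured. With 1 library per genotype there is no replicate spread and no test. Intervals are exact, at 95%, and cover counting error only. The libraries differed in RNA of testis markers, Y-linked genes and the male-specific roX RNAs of somatic cells. The summed level of 10 testis markers, which include the beta tubulin gene betaTub85D, was 3.49 CPM with C1, 4.19 with C2, 4.69 with C3, 2631 with C4 and 3.31 with C5, against 1236 CPM in the control. The markers can and twe kept the most, with 0.699 and 1.61 CPM in C1 against 9.66 and 15.7 CPM in the control. Summed over 5 Y-linked genes, the level was 18.9 CPM in C4 against 8.72 in the control, and 0 counts in C1, C2, C3 and C5. The roX1 and roX2 RNAs summed to 11.9, 16.2, 14.5, 340 and 13.3 CPM in C1 to C5, against 215 CPM in the control. In bulk RNA, fewer cells of a type and less RNA per cell cannot be told apart.

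The Vha genes fell into 3 sets by their levels. The 14 main genes were abundant everywhere and stayed within 2-fold of the control in every library. A set of 11 paralogs was present in C4 and the control and had 10 counts or fewer per gene elsewhere, and the testis markers too were high in C4 and the control. The other 8 paralogs were present in all 6 libraries. The set of 11 was delimited after its values were seen, as the members at 1 CPM or more in the control and at 5% of that level or less in the libraries of C1, C2, C3 and C5. No member lay near that limit. The highest value inside it was that of VhaAC39-2, at 2.64% of the control in C2, and the nearest value outside, among members with at least 1 CPM in the control, was that of Vha68-1, at 57.9% in C3. The same rule took 1578 of all 11662 genes at 1 CPM or more in the control library (13.5%).

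**Figure D1:**
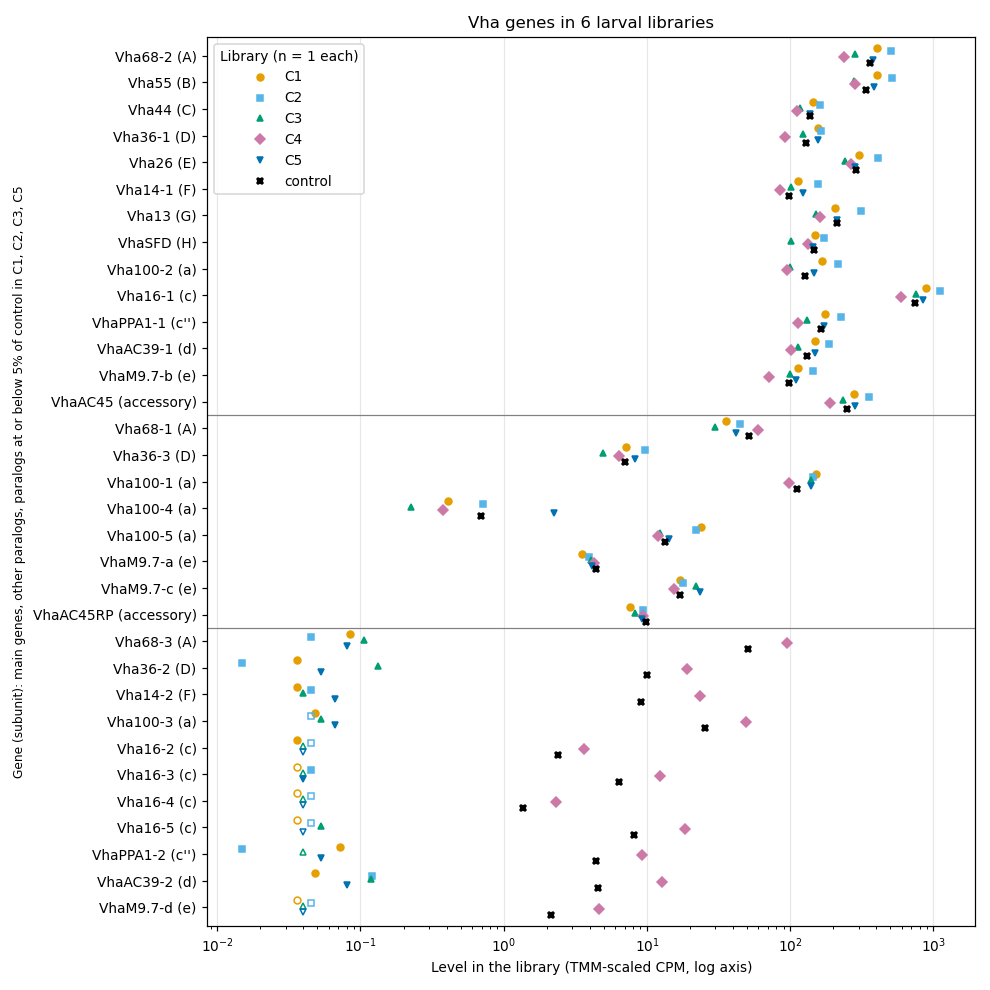
Level of each of the 33 Vha genes (TMM-scaled CPM, log axis) in the libraries C1 to C5 and the control, 1 point per library, with the subunit in parentheses. Open symbols mark 0 counts and are drawn at the level of 3 counts; filled points to their left are of 1 count. The lower 11 genes stand at 1.36 CPM or more in C4 and the control and at no more than 0.132 CPM in the other 4 libraries.

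The paralogs nearly absent outside C4 and the control are given first, beginning with the V1 sector. Vha68-3 is a gene for the catalytic subunit A (chromosome 2L, 12978786 to 12981293). It had 0.0844 CPM with C1, 0.0449 with C2, 0.105 with C3, 94.6 with C4 and 0.0800 with C5, against 50.4 CPM in the control. These are 3 to 8 counts in C1, C2, C3 and C5, against 9334 in C4 and 4639 in the control. The level in C1 was 597-fold lower than in the control (interval 289.6 to 1486), and that in C4 was 1.88-fold higher (interval 1.81 to 1.95). It was the most abundant gene of the 11.

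Vha36-2 encodes subunit D, part of the central stalk (2R, 12257282 to 12258652). It stood at 0.0362 CPM with C1, 0.0150 with C2, 0.132 with C3, 19.2 with C4 and 0.0533 with C5, against 9.99 CPM in the control. Vha14-2 encodes subunit F, also of the stalk (3R, 6122592 to 6124405). It stood at 0.0362, 0.0449, 0.0395, 23.5 and 0.0667 CPM in C1 to C5, against 9.05 CPM in the control. Both genes thus had at most 10 counts in any of C1, C2, C3 and C5. In C4 the level of Vha14-2 was 2.60-fold that of the control (interval 2.40 to 2.82).

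Every V0 subunit had at least 1 such paralog. Vha100-3 encodes the large membrane subunit a, which holds the path of the protons (2R, 18908961 to 18911895). It stood at 0.0482 CPM with C1, 0 with C2, 0.0527 with C3, 48.9 with C4 and 0.0667 with C5, against 25.4 CPM in the control. In C2 it was 566-fold lower than in the control when 3 counts were put in for 0, and the interval started at 459.9-fold. The small subunit e gene VhaM9.7-d (3R, 16975204 to 16975697) had 0 counts in C1, C2, C3 and C5. It stood at 4.62 CPM in C4 against 2.15 CPM in the control. In those 4 libraries 3 counts correspond to 0.0362 to 0.0449 CPM.

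Subunit c forms the proton-carrying ring, and 4 of its 5 genes were in this set. Vha16-5 (2L, 10736319 to 10737043) had 0 counts in C1, C2 and C5, 0.0527 CPM in C3 and 18.5 CPM in C4, against 8.08 CPM in the control. Vha16-3 (3L, 11473291 to 11473972) stood at 0, 0.0449, 0, 12.2 and 0.0400 CPM in C1 to C5, against 6.39 CPM in the control. These were the more abundant members of the ring set. Vha16-2 (3L, 11474958 to 11475552) had 3 counts in C1, 0 in C2, C3 and C5, and 3.65 CPM in C4, against 2.38 CPM in the control. Vha16-4 (2R, 16947658 to 16948224) had 0 counts in C1, C2, C3 and C5, and 2.33 CPM in C4 against 1.36 CPM in the control. Exons of the antisense gene asRNA:CR46049 cover 84.5% of the exonic bases of Vha16-2. That gene stood at 3.99 CPM in C4 against 1.41 in the control, and since the strand setting of the counting is not given in the sources used here, reads of the pair cannot be told apart.

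VhaPPA1-2 encodes subunit c'' of the ring (3R, 14899606 to 14900277). It stood at 0.0723 CPM with C1, 0.0150 with C2, 0 with C3, 9.21 with C4 and 0.0533 with C5, against 4.41 CPM in the control. VhaAC39-2 encodes subunit d, which couples the ring to the stalk (3R, 23158017 to 23159316). It stood at 0.0482, 0.120, 0.118, 12.8 and 0.0800 CPM in C1 to C5, against 4.54 CPM in the control. All 11 genes were lower in C1, C2, C3 and C5 than in the control and higher in C4 than in the control. Their summed level was 0.362 CPM with C1, 0.284 with C2, 0.500 with C3, 249.6 with C4 and 0.440 with C5, against 124 CPM in the control. Testis and somatic male RNA differed between the same libraries, and their part in these differences was not tested. The choice of the 11 fixed their direction in all but C4, so it supports nothing.

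The folds of the 11 paralogs in C4 over the control differed from each other by more than counting error. They ranged from 1.53 for Vha16-2 (interval 1.29 to 1.82) to 2.82 for VhaAC39-2 (2.53 to 3.16), and those intervals do not overlap. With 1 library per genotype no other error could be measured, and reads of Vha16-2 cannot be told apart from those of asRNA:CR46049. The median log2 ratio of the 11 was 0.94, beside 0.95 (quartiles 0.80 and 1.08) over the 1578 genes that met the same rule. Testis markers covered a similar range, with can at 1.80-fold (1.66 to 1.95), S-Lap1, a sperm leucyl aminopeptidase gene, at 2.12-fold (2.10 to 2.15) and twe, the meiotic Cdc25 phosphatase gene, at 3.64-fold (3.44 to 3.86). Besides VhaAC39-2 and Vha14-2, Vha16-5 stood high at 2.29-fold (2.10 to 2.50), while the most abundant members, Vha68-3 and Vha100-3, stood at 1.88-fold and 1.92-fold.

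**Figure D2:**
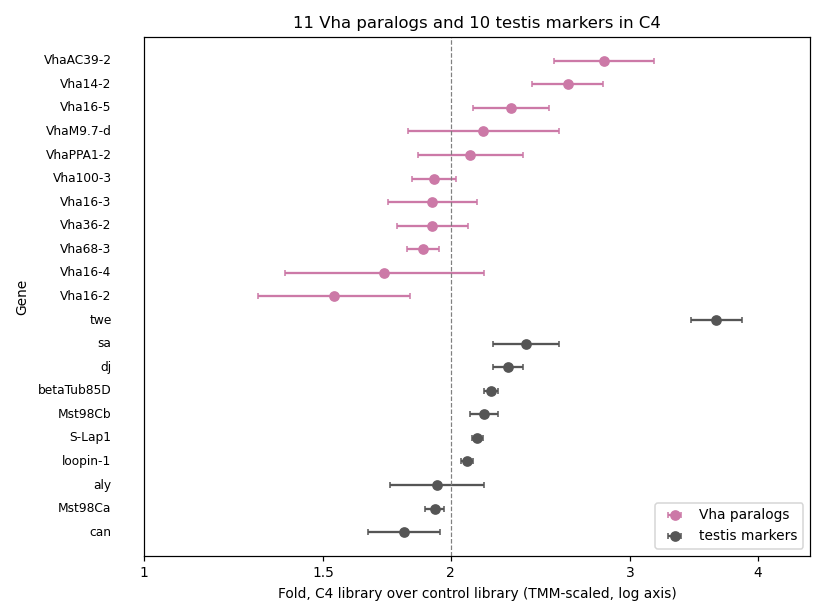
Fold of the C4 library over the control library (TMM-scaled, log axis) for the 11 Vha paralogs and 10 testis markers. Bars are exact 95% intervals of counting error with 1 library per genotype. The dashed line marks 2-fold. VhaAC39-2 (2.82) and Vha14-2 (2.60) lie to the right of the other paralogs and Vha16-2 (1.53) to the left.

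How much of each subunit's RNA came from these paralogs was measured per length, as their share of the RPKM (reads per kilobase and 1000000 reads) summed over the subunit's genes. Over the 8 subunits concerned they held 17.1% of the RPKM in C4 and 7.16% in the control, and between 0.0154% (C2) and 0.0346% (C3) in the other 4 libraries. For subunit A, Vha68-3 held 24.7% in C4 and 11.1% in the control. The 4 ring paralogs together held 20.8% of subunit c in C4 and 9.52% in the control. Vha100-3 held 19.3% of subunit a in C4 and 9.23% in the control. Subunit F had 15.6% and subunit d 15.4% from its paralog in C4, against 6.08% and 4.80% in the control. In subunit D, Vha36-2 held 13.9% in C4, against 5.74% in the control. The share was lowest for subunit e, at 6.89% in C4 and 2.53% in the control. In no subunit did these paralogs exceed the main gene.

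**Figure D3:**
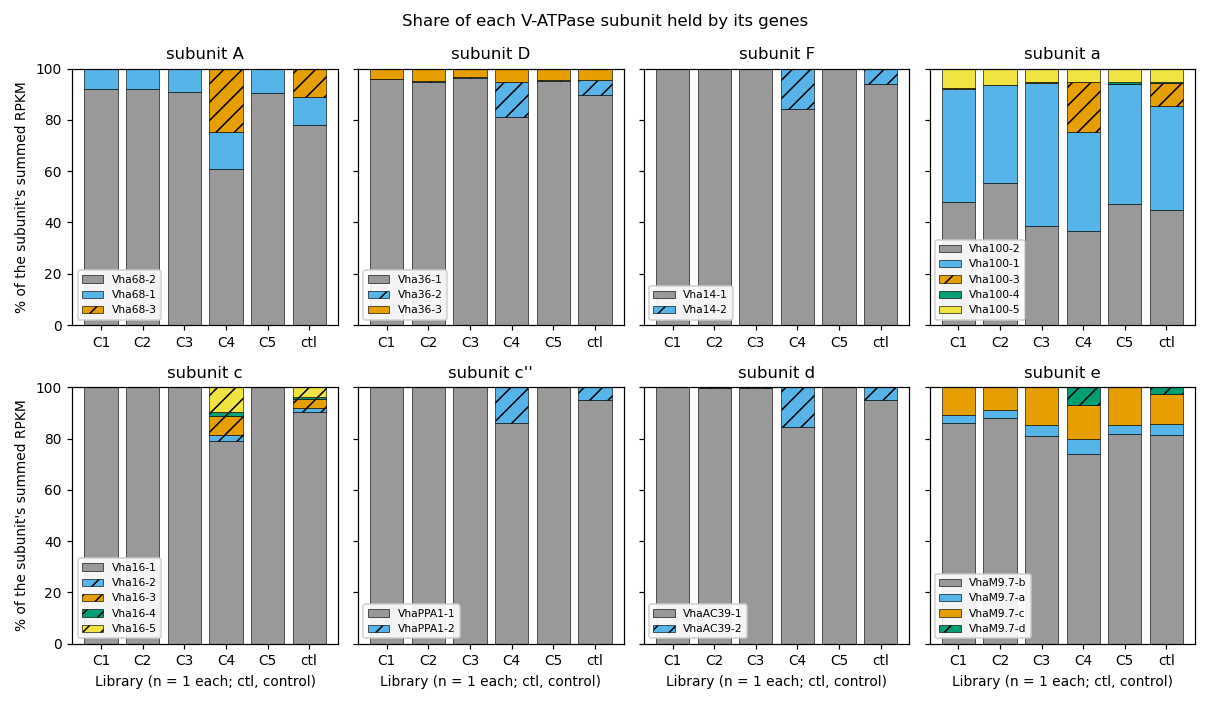
Share of the RPKM of a subunit held by each of its Vha genes (%, stacked to 100) in C1 to C5 and the control (ctl), for the 8 subunits with a hatched paralog, those nearly absent outside C4 and the control. Hatched parts are visible in C4 and the control, and reach 24.7% for Vha68-3 in C4 against 11.1% in the control.

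Gene structure had no part in the choice of the 11 paralogs. In the Ensembl annotation of the same assembly, 7 of them had a single coding exon and 10 at most 2, against 3 of the 14 main genes with at most 2. The exception was Vha14-2, with 3. A single RefSeq transcript was listed for 9 of the 11 and for 3 of the 14 main genes. None of the 11 was X-linked, against 1 main gene (VhaAC39-1) and 1 other paralog (Vha36-3). Protein lengths were not alike: 5 of the 11 had more codons than their main gene, 2 the same number and 4 fewer, by at most 4 codons. Vha68-3 had 743 codons against 614 in Vha68-2, Vha36-2 had 373 against 246 in Vha36-1, and Vha100-3 had 904 against 834 in Vha100-2. VhaPPA1-2 and VhaAC39-2 had the same number of codons as their main genes, 212 and 350.

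Some Vha genes lie near each other, in the same or in different sets. Vha68-3 begins 178 bases after the end of Vha68-2, its main gene, on the same strand of 2L. Vha68-2 stood at 237 CPM in C4 and 401 in C1, where Vha68-3 stood at 94.6 and 0.0844 CPM. VhaPPA1-2 and its main gene VhaPPA1-1 lie 2052 bases apart on 3R, with 1 protein-coding gene between them. Vha16-3 and Vha16-2, both of the set of 11, are 985 bases apart on 3L.

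The next question was whether the main genes differed between the transgenic and the control larvae. None of the 14 reached 2-fold in either direction in any library. A gene is called higher or lower here where its fold reached 2 and the interval left out 1. Among the 31 measured Vha genes, 10 were lower and none higher by this rule in the C1 library, with the same numbers for C2, C3 and C5, all of them from the set of 11. Of all measured genes, 18% (C1), 20% (C2), 21.8% (C3) and 18.6% (C5) were lower by this rule, and 5.1%, 8.94%, 6.02% and 4.83% were higher. In C4, 5 Vha genes were higher (Vha14-2, Vha16-5, VhaPPA1-2, VhaAC39-2 and VhaM9.7-d) and none lower, beside 8.97% and 3.16% of all measured genes. The 10 measured genes of the set of 11 passed the filter on low levels only through C4 and the control, so their counts add nothing to the values above. Vha16-4 and Vha100-4 did not pass it.

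With TMM factors, levels of the main genes followed a common order of libraries. All 14 were highest in C2. The lowest value was in C4 for 10 of them and in C3 for the other 4. This order depended on the scaling. By the deposited RPKM, only Vha36-1, Vha16-1, VhaM9.7-b and VhaAC45 were lowest in C4, and all other main genes were lowest in C3. Vha68-2 was among the latter (100.3 in C3, against 101.6 in C4), and so was Vha100-2 (28.9, against 33.5 in C4). Vha44 and VhaSFD then stood highest in the control (70.6 and 65.8, against 62.7 and 62.4 in C2), and Vha36-1 in C1. Vha55, the single gene for the nucleotide-binding subunit B (3R, 12623762 to 12627829), stood at 406 CPM with C1, 513 with C2, 281 with C3, 283 with C4 and 384 with C5, against 339 CPM in the control. The catalytic subunit gene Vha68-2 (2L, 12974322 to 12978607) stood at 401, 509, 285, 237 and 381 CPM in C1 to C5, against 363 CPM in the control. The ring gene Vha16-1 (2R, 6625242 to 6633090), the main gene with the most counts, stood at 887, 1115, 752, 595 and 845 CPM in C1 to C5, against 742 CPM in the control. For each of these 3 genes C2 was high, and C4 or C3 low.

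The next genes belong to the peripheral stalk, Vha26 for subunit E and Vha13 for subunit G. Vha26 stood at 302 CPM with C1, 407 with C2, 240.1 with C3, 266 with C4 and 284 with C5, against 289.6 CPM in the control. Vha13 stood at 205, 311, 151, 160.1 and 211 CPM in C1 to C5, against 211 CPM in the control. VhaSFD, the gene for the regulatory subunit H, stood at 148, 173, 102, 133 and 143 CPM, against 146 CPM in the control. C3 had the lowest level of all 3 genes.

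Of the other V1 genes, Vha44 (subunit C, which joins the stalks) had 145 CPM with C1, 162 with C2, 117 with C3, 111 with C4 and 136 with C5, against 137 CPM in the control. The stalk gene Vha36-1 (subunit D) had 157, 165, 124, 91.8 and 156 CPM in C1 to C5, against 128 CPM in the control. Vha14-1 (subunit F) had 113, 156, 101, 85.2 and 122 CPM, against 98.4 CPM in the control. All 3 were lowest in C4 with TMM factors.

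In the V0 sector, Vha100-2 (subunit a) had the widest range of the main genes, with a highest level 2.27-fold its lowest. It stood at 167 CPM with C1, 215 with C2, 99.3 with C3, 94.6 with C4 and 146 with C5, against 126 CPM in the control. VhaPPA1-1 (subunit c'') stood at 174, 226, 131, 114 and 172 CPM in C1 to C5, against 165 CPM in the control. VhaAC39-1 (subunit d) stood at 148, 186, 113, 102 and 149 CPM, against 131 CPM in the control. All 3 were highest in C2 and, with TMM factors, lowest in C4. VhaM9.7-b (subunit e) stood at 113, 145, 99.9, 70.9 and 109 CPM, against 98.2 CPM in the control. VhaAC45, whose product is an accessory subunit of V0, stood at 280.1, 352, 233, 189 and 283 CPM, against 250.1 CPM in the control.

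As log2 ratios to the control, the 14 main genes had a median of 0.17 with C1 (range -0.04 to 0.41), 0.50 with C2 (0.24 to 0.77), -0.25 with C3 (-0.52 to 0.03), -0.38 with C4 (-0.61 to -0.12) and 0.16 with C5 (-0.03 to 0.31). The medians over all measured genes were 0.05, -0.03, -0.01, 0.06 and 0.03. Plain library totals in place of TMM factors moved the median of all genes to -0.15 with C1, -0.33 with C2, -0.15 with C3, 0.18 with C4 and -0.24 with C5. With them the main genes had medians of -0.03 in C1 and -0.11 in C5, so the direction in those libraries depended on the scaling. Relative to the median of all measured genes, the main genes stood at 0.12 with C1, 0.53 with C2, -0.24 with C3, -0.44 with C4 and 0.13 with C5. Plain totals changed these differences by less than 0.01. In C2 all 14 were higher than the control with TMM factors and 12 with plain totals. In C4 all 14 were lower with TMM factors and 13 with plain totals.

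With a lower limit of 1.5-fold, 4 main genes were higher in C2 (Vha55, Vha14-1, Vha100-2 and Vha16-1), beside 15.2% of all measured genes, with the paralog Vha100-5 as the 5th Vha gene. With plain totals or the deposited RPKM none of these 5 reached 1.5-fold, and with DESeq2 size factors 2 main genes (Vha14-1 and Vha100-2) and Vha100-5 did. Vha100-2 had the largest fold of these, 1.70 (log2 ratio 0.77, interval 0.73 to 0.80). In C4, 1 main gene was lower, Vha68-2, at 0.655 of the control level, beside 7.87% of all measured genes. It did not reach 1.5-fold under the other 3 scalings. In C4 the 10 measured genes of the set of 11 were higher, beside 21.9%. They passed the filter only through C4 and the control, so this count adds nothing to their folds given above. Vha68-1 was the only measured Vha gene outside that set to be lower at 1.5-fold in C3, where 26.9% of measured genes were. In C1, C2 and C5 no measured Vha gene outside it was, beside 21.5%, 25.1% and 22.1% of measured genes. These shares of lower genes, in C3 too, include genes that met the rule of the set of 11. The Vha counts leave that set out, so counts and shares are not of like sets. No measured Vha gene outside the set of 11 was higher in C3 or C5, beside 14% and 11.5%. With plain totals Vha68-1 was past 1.5-fold lower in C1 and C5 too, and Vha13, VhaSFD and Vha36-3 were in C3.

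Markers of other tissues also differed. The summed level of 4 muscle markers was 10005 CPM in C2 and 2631 in the control, and that of 6 Malpighian tubule markers 170.8 and 45.7 CPM, of which the urate oxidase gene Uro held 112 and 0.619 CPM. Markers of midgut (383 and 188 CPM), fat body (113342 and 74482 CPM) and salivary gland (18298 and 12399 CPM) were also higher in sum in C2 than in the control. Midgut and fat body sums were higher than the control in C1 (722 and 105150 CPM) and C5 (568 and 119671 CPM) too. The salivary gland sum was 9826 CPM in C1 and 18291 CPM in C5. In C3, where the main genes were low, muscle markers summed to 658 CPM, against 2631 CPM in the control, and 3 salivary gland markers to 226 CPM, against 12399 CPM in the control. The tubule sum was lower in C3 too (38.5 CPM), with ZnT35C at 15.0 CPM, against 27.8 CPM in the control. Of the 5 measured tubule markers 2 were higher in C3, Uro (1.91 CPM, against 0.619) and SecCl (14.2 CPM, against 5.96). The midgut and fat body sums were higher than the control in C3 (318 and 84340 CPM). There 3 of 4 midgut genes and 2 of 4 fat body genes were above the control. In C4 the 4 fat body markers summed to 45228 CPM, against 74482 CPM in the control. In sum, midgut, muscle and salivary gland markers were lower in C4 too (169, 2100 and 7867 CPM), while tubule markers were higher (55.2 CPM). Of the 4 midgut genes 3 were above the control in C4, and alphaTry was below it (55.0 CPM, against 114.8 CPM). Of the 5 measured tubule markers 2 were below the control in C4, Irk3 (1.15 CPM, against 3.32) and Lkr (3.65 CPM, against 7.63). The part of these tissues in the main genes' levels was not tested.

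**Figure D4:**
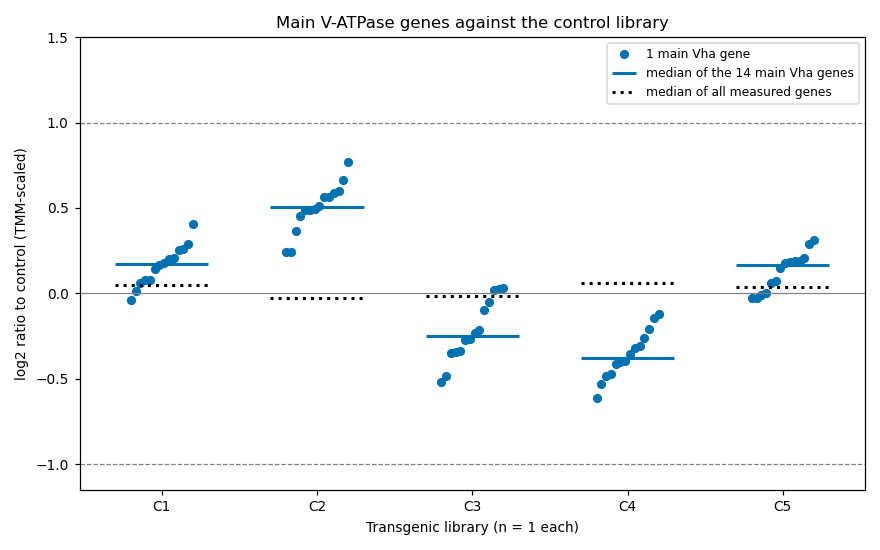
log2 ratio of each transgenic library to the control (TMM-scaled) for the 14 main Vha genes, 1 point per gene, with their median (solid line) and the median of all measured genes (dotted line). Dashed lines mark 2-fold. No point reaches them, all points of C2 lie above 0 and all points of C4 lie below.

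The subunits' RNA levels per length differed from each other by up to 8.05-fold within a library (C3). Ranked by RPKM, Vha16-1 and Vha13 held the first and second places in all 6 libraries and Vha14-1 the third. Vha13 had 250.3 RPKM with C1, 348 with C2, 185 with C3, 241 with C4 and 243 with C5, against 294 RPKM in the control. Vha100-2 was last in all 6, with 48.0, 56.5, 28.9, 33.5 and 39.3 RPKM in C1 to C5, against 41.4 RPKM in the control. VhaSFD was 13th in all but C4, where it was 11th.

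Ratios between main genes do not depend on the scaling. After the median of the 14 was taken away, VhaAC39-1 had log2 ratios to the control of 0.01 (C1), 0.01 (C2), 0.04 (C3), 0.02 (C4) and 0.03 (C5), close to the median in all 5. Vha68-2 was at -0.23 and Vha26 at 0.26 in C4. The count ratio of Vha26 to Vha68-2 was 1.12 in C4, against 0.799 in the control, and between 0.746 and 0.842 in the other 4 libraries. In C3, Vha14-1 (0.28), Vha16-1 (0.27) and VhaM9.7-b (0.27) stood above the median of the 14, and VhaSFD (-0.27) and Vha13 (-0.23) below. Vha100-2 stood above it in C1 (0.24) and C2 (0.26). Vha44 and VhaSFD stood below it in C2, both at -0.26.

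**Figure D5:**
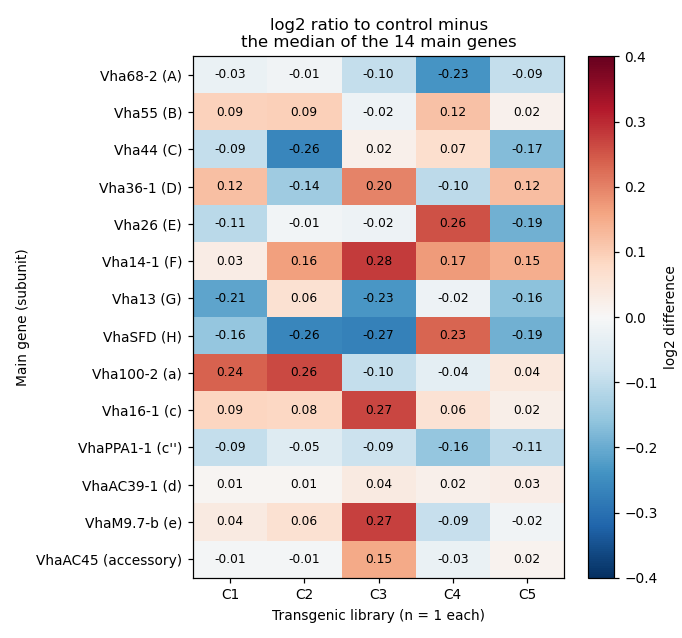
log2 ratio to the control for each main gene (rows, subunit in parentheses) in C1 to C5 (columns), minus the median over the 14 main genes in that library. Red is above and blue below that median. The row of VhaAC39-1 is near 0 throughout, and C4 has Vha26 at 0.26 and Vha68-2 at -0.23.

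The other 8 paralogs were present in all libraries. Vha100-1, the subunit a gene known for its role in synaptic vesicles of neurons (3R, 29131193 to 29137980), stood at 151 CPM with C1, 145 with C2, 140.2 with C3, 98.3 with C4 and 140.4 with C5, against 112 CPM in the control. Per length it was close to the main gene in C4 and the control, at 35.8 and 37.6 RPKM beside 33.5 and 41.4 RPKM for Vha100-2. In C2 it stood below the main gene, with 39.1 RPKM beside 56.5 RPKM. In C3 it exceeded the main gene, with 41.9 RPKM beside 28.9 RPKM. The summed level of 7 neuron markers was 359 CPM with C1, 394 with C2, 290.3 with C3, 251.6 with C4 and 335 with C5, against 258.9 CPM in the control. The synaptotagmin gene Syt1 carried much of this, at 152 CPM in C5 and 76.1 in the control, where the other 6 summed to 183 CPM in both. The median log2 ratio of the list was 0.30, 0.19, -0.03, -0.07 and 0.08 in C1 to C5.

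Vha68-1, a further subunit A gene (2L, 13000770 to 13004107), was highest in C4 and the control. It had 35.8 CPM with C1, 44.6 with C2, 30.0 with C3, 59.4 with C4 and 41.6 with C5, against 51.8 CPM in the control. With TMM factors its main gene Vha68-2 had its lowest level in C4, and the levels of the pair thus differed in order. In C3 its log2 ratio was -0.79 (interval -0.86 to -0.72), the lowest of the measured other paralogs.

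Vha100-5 (subunit a; 2L, 11738948 to 11744524) was highest in C1 and C2, at 23.8 and 22.0 CPM, with 12.3 in C3, 11.9 in C4 and 14.1 in C5, against 13.3 CPM in the control. Its log2 ratios were 0.84 in C1 (interval 0.74 to 0.95) and 0.73 in C2 (0.62 to 0.84), between 1.5-fold and 2-fold. In C1, 12.7% of measured genes were at least 1.5-fold higher. Exons of the antisense gene asRNA:CR44144 cover 18.1% of its exonic bases, and that gene stood at 0.0241 CPM in C1 and 0.165 in C2, against 1.06 CPM in the control.

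Vha100-4 (subunit a; 3R, 18386841 to 18389805) had the lowest level of the other paralogs, below the filter. It stood at 0.410 CPM with C1, 0.718 with C2, 0.224 with C3, 0.375 with C4 and 2.24 with C5, against 0.695 CPM in the control. The C5 level rests on 168 counts and the control level on 64, a fold of 3.22 (log2 ratio 1.69, interval 1.26 to 2.13). lab, the transcription factor gene that marks copper cells of the midgut, stood at 0.973 CPM in C5 and 1.49 in the control. Vha100-2, which lies 517 bases away on the same strand, stood at 146 CPM in C5 and 126 in the control.

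The remaining 4 stayed within 1.5-fold of the control. Vha36-3 (subunit D) ranged from 4.90 CPM in C3 to 9.73 CPM in C2, against 7.04 CPM in the control. VhaM9.7-c (subunit e) ranged from 15.5 CPM in C4 to 23.6 CPM in C5, against 17.1 CPM in the control. VhaM9.7-a (subunit e) stood between 3.51 (C1) and 4.29 CPM (C4), against 4.38 CPM in the control. VhaAC45RP, a relative of the accessory subunit gene, stood between 7.60 (C1) and 9.41 CPM (C4), against 9.82 CPM in the control. VhaM9.7-a and VhaAC45RP were thus highest in the control with TMM factors, and in C4 by the deposited RPKM.

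For Vha55 and VhaSFD the shares of single transcripts also differed between libraries. These transcripts were picked after their values were seen, and their counts are the authors' estimates, with reads shared among isoforms in a way not given in the sources used here. Vha55 had 3 transcripts. The transcript with the smallest share in the control made up 9.07% of the RPKM of the gene with C1, 32.7% with C2, 26.0% with C3, 14.3% with C4 and 13.5% with C5, against 11.9% in the control. The transcript second in the control made up 29.3%, 15.9%, 7.71%, 27.0% and 35.6% in C1 to C5, against 34.8% in the control. C2 and C3 thus differed from the other 4 libraries in both. For VhaSFD, with 4 transcripts, the one that ranked after 2 others in the control had 0.525 RPKM with C1, 0.929 with C2, 0.619 with C3, 5.49 with C4 and 0.707 with C5, against 2.75 RPKM in the control. It was highest in C4 and the control, where it made up 8.50% of the gene in C4 and 4.17% in the control.

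Genes that act with the pump were taken from 3 lists. Of 13 genes for its assembly and regulation, all measured, none was called higher in any library, and 1 was called lower in all but C4, beside 4.83% to 8.97% of all measured genes higher over the 5 comparisons and 18% to 21.8% lower in C1, C2, C3 and C5. That gene was CG5421, which RefSeq lists with the synonym VhaAC45-2. It stood at 0.229 CPM with C1, 0.150 with C2, 0.408 with C3, 10.2 with C4 and 0.387 with C5, against 6.44 CPM in the control and was thus high in the libraries where the 11 paralogs were. CG5421 passed the filter on low levels only through C4 and the control, so its lower calls add nothing to these values. ATP6AP2, the second accessory subunit gene, once named VhaM8.9, stood at 225, 251, 163, 163 and 226 CPM in C1 to C5, against 203 CPM in the control. The list medians (log2) were 0.34, 0.30, 0.11, -0.17 and 0.18 in C1 to C5. Mitf, the transcription factor known to control V-ATPase genes in flies, stood between 43.8 (C4) and 60.9 CPM (C1), against 48.2 CPM in the control.

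Of 22 lysosome genes 20 were measured, and Trpml had 0 counts in all libraries. Called higher were 1, 1, 2, 1 and 2 genes in C1 to C5, and called lower were 0, 1, 1, 1 and 0. Of all measured genes 5.1%, 8.94%, 6.02%, 8.97% and 4.83% were called higher and 18%, 20%, 21.8%, 3.16% and 18.6% lower. Gba1a, a glucocerebrosidase gene, stood at 7.24 CPM with C1, 1.18 with C2, 2.71 with C3, 2.01 with C4 and 4.47 with C5, against 0.945 CPM in the control. Gba1b, of the same family, was high in C2 (28.1 CPM, against 8.14 in the control). Cln3, a lysosomal membrane protein gene, was low in C3 (12.7 CPM, against 47.1 in the control). Gal, the beta galactosidase gene, was low in C2 (45.6 CPM) and C4 (66.1 CPM), against 136 CPM in the control. Medians of the list were 0.43, 0.13, 0.18, -0.23 and 0.43 in C1 to C5. The largest median of the main Vha genes was thus in C2, and those of this list were in C1 and C5.

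Of 21 genes of ion and water transport in kidney and gut, all measured, 3, 2, 4, 0 and 0 were called higher in C1 to C5, and 1, 2, 1, 3 and 0 were called lower, to be read beside the same shares over all measured genes, such as 6.02% higher and 21.8% lower in C3. Nha2, a sodium-proton antiporter gene of the family thought to use the V-ATPase gradient, was high in C2 (11.1 CPM, against 2.73 in the control). CAH1, a carbonic anhydrase gene, stood at 543, 231, 697, 91.0 and 188 CPM in C1 to C5, against 264 CPM in the control. ClC-a, a chloride channel gene, stood at 58.2, 60.2, 75.1, 33.6 and 41.7 CPM, against 28.8 CPM in the control. Irk3, a potassium channel gene of the tubule, was low in C4 (1.15 CPM, against 3.32 in the control). List medians were 0.40, 0.07, 0.22, -0.24 and 0.10 in C1 to C5.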

How the data were processed

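Whole-larva total RNA was depleted of ribosomal RNA and sequenced as stranded paired-end libraries, per the labels' protocols. Tools in the submitters' processing notes are TopHat, Partek and bcl2fastq, and the build is dm6; neither versions nor roles are stated. For each library the authors deposited expected counts (estimated reads per RefSeq transcript, not scaled) and RPKM values for 34966 transcripts. Of these, 33027 matched a gene of the RefSeq table (Release 6 plus ISO1 MT, the assembly of dm6), and 74 belonged to Vha genes. The unmatched held between 0.0796% and 0.136% of a library's counts. Counts were summed per gene, rounded, and scaled with TMM factors (edgeR 4.0.16, R 4.3.3). RPKM were summed per gene to compare different genes.

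A gene was called higher or lower at a fold of at least 2 with an exact 95% binomial (Clopper-Pearson) interval that excludes 1. Library values below 3 counts were set to 3 for the call. Any fold against 0 counts was taken against 3 counts, and its interval can reach below that fold. This rule was run on simulated counts drawn around the control's levels with counting error only. They had no spread between libraries, so they cannot show how the rule does on single libraries. Alternatives were DESeq2 1.42.0 size factors, plain CPM, the deposited RPKM, no filter, a mean of 5 CPM and a limit of 1.5-fold. Reads shared by paralogs or isoforms were divided by the authors in a way not given in the sources used here.

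The members and lists were chosen with earlier results of these data known. Genes were named by a written rule: every Vha gene, and in each list the 4 measured genes with the largest absolute log2 ratios among those called. LManV, called without the filter, was not measured. Mitf, ATP6AP2 and Trpml, and nrv2 in the closing section, were named outside the rule. VhaM8.9, on the list of main genes, has the symbol ATP6AP2 in RefSeq and is no member.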

Additional observations from a re-analysis of the deposited data

How the results depend on the processing

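With 1 library per genotype no result has a replicate check, and no library could be left out of a comparison. No paired analysis was possible because each group has 1 library. The counts of called Vha genes were recomputed under 6 alternatives. With DESeq2 size factors every count stayed within 1.5 times its value. In C4, plain CPM and the deposited RPKM each gave 9 higher Vha genes in place of 5, since the folds of the 11 paralogs lie around 2. The minimum of 5 CPM left 3 lower genes in every library but C4, and 1 higher gene in C4, because it removes most of those paralogs. No filter added 1 higher gene in C5, Vha100-4, and gave 11 lower genes in C1, C2 and C5 and 12 in C3 in place of 10. A limit of 1.5-fold gave 1 higher gene in C1, 5 in C2 and 10 in C4, and 1 lower gene in C4. By CPM in place of RPKM the 11 paralogs held 13.6% of their 8 subunits in C4 and 5.69% in the control. No called log2 ratio of a single Vha gene changed sign under another scaling.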

Other observations

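The 5 subunits with a single Vha gene (B, C, E, G and H) were set beside the 8 that have a paralog nearly absent outside C4 and the control. This split was noticed in the values and gets no test. RPKM ratios of the main genes to the control were centred on the median over the 13 subunits of each library. In C4 the single genes had a median log2 value of 0.08 (range -0.03 to 0.25), and the main genes of the other 8 subunits -0.08 (-0.24 to 0.16). In C1 the medians were -0.14 and 0.03, and in C5 they were -0.18 and 0.04. C3 had -0.08 and 0.20, while C2 had -0.02 and 0.03. The members of the 2 sets overlapped in C4, and centring on their common median moves the 2 medians to opposite sides of it.

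When the RPKM of all genes of a subunit were summed, the medians in C4 became -0.04 for the single-gene subunits and 0.03 for the other 8. The span over the 13 subunits was 0.49 for the main genes and 0.35 for the sums in C4. It was 0.62 and 0.43 in C2, 0.45 and 0.40 in C1, 0.38 and 0.36 in C5, and 0.55 and 0.59 in C3, where the sums spread more widely.

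Among the genes of the ion transport list, nrv2, a sodium pump beta subunit gene, also stood highest in C4 and the control. It had 37.3 CPM with C1, 39.7 with C2, 51.0 with C3, 106 with C4 and 59.3 with C5, against 79.8 CPM in the control.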
